A study of Homo sapiens with 80 samples.

Results

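The mitochondrial genome is a small circular DNA that encodes 37 RNAs: 13 mRNAs for subunits of the respiratory chain, 22 tRNAs and 2 ribosomal RNAs. It was followed here through cardiomyocyte differentiation of human pluripotent stem cells, using the genes listed under RefSeq symbols. Of the 37 genes on the list, 24 of the 43388 genes in each TPM table were analysed: RNR1 (12S rRNA), RNR2 (16S rRNA) and all 22 tRNA genes. The 13 mRNA genes are not analysed here, so no mRNA share is given. The set was chosen by the measured levels of RNR1 and RNR2 in these same libraries, and those levels in the high and low purity wells are therefore given as a description, without a test.

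Human mitochondrial DNA is transcribed from both strands into long precursors. The transcript of the H strand carries both rRNAs and 14 of the tRNAs, and that of the L strand carries the other 8 tRNAs. tRNA sequences lie between the longer genes and are cut out at both ends, which frees the rRNAs and mRNAs on either side. Mitochondrial mRNAs receive poly(A) tails, the 16S rRNA ends in a short adenylated tail, and a mature tRNA ends in CCA. Heart muscle is rich in mitochondria.

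There were 80 libraries in 2 experiments. In the multi-omic experiment, WTC11 induced pluripotent stem cells were treated with CHIR99021, which activates WNT signalling, on day 0 and with IWP2, which blocks WNT secretion, on day 2, and 56 wells were sequenced with the Illumina TruSeq Stranded mRNA kit, which selects poly(A) RNA. The 25 high purity wells came from a single differentiation at passage 52 and the 31 low purity wells from a single differentiation at passage 69, where purity is the share of cells with cardiac troponin T on day 16; purity, passage and differentiation cannot be told apart, and wells measure only the spread within a differentiation. Each class had 4 wells on days 0, 2, 4 and 6; later days had 3 high and 4 low wells (day 8), 1 and 4 (day 10), 2 and 4 (day 13) and 3 and 3 (day 16). In the RNA-only experiment, 24 libraries were made with the Takara SMARTer Stranded Total RNA HI Mammalian kit from 3 lines: WTC11, the induced pluripotent line IMR90-4, and the human embryonic stem cell line H9. Each line had 1 high and 1 low purity differentiation and 1 library at each of 4 stages, which were days 0, 2, 4 and 6 for WTC11 and days 0, 3, 5 and 7 for the other lines. The passages were 58 (high) and 55 (low) for H9, 55 and 75 for IMR90-4, and 81 and 69 for WTC11. In each class CHIR99021, IWP2 and insulin were given on the same schedule for a line.

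Depth ran from 6579715 to 18143597 reads per library with the poly(A) kit and from 17990882 to 40357968 with the total RNA kit. The labelled cell types were checked against marker genes. On day 0, 4 of 5 pluripotency markers were clearly present (NANOG 91.5 to 108 TPM), whereas POU5F1, which has near-identical copies in the genome, was at 0.157 to 0.804 TPM. On day 16 the summed level of 6 cardiomyocyte markers was 9929 to 11973 TPM in high and 3603 to 5353 TPM in low purity wells, and that of 5 stromal markers was 377 to 457 TPM and 8499 to 11543 TPM.

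The sequences below are those of the rRNA ends and of the tRNAs that set the kits or stages apart. They are taken from GENCODE transcripts on GRCh38, 5′ to 3′ on the strand of the gene, and capitals mark the longest run of A in each. The first pair shows the last 60 bases of the rRNAs, where a tail would be added: RNR1 lies at chrM:648-1601 between TRNF and TRNV, and RNR2 at chrM:1671-3229 between TRNV and TRNL1.
RNR1 3′ end, chrM:1542-1601: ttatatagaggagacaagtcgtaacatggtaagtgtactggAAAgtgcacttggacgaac
RNR2 3′ end, chrM:3170-3229: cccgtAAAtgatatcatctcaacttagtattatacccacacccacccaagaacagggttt

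The second pair shows the windows of 60 bases around the longest A run inside each rRNA, since a poly(A) kit captures RNA by its A residues. RNR2 has a run of 7 and 4 runs of at least 6, while RNR1 has a single run of 6; A makes up 35.1% of RNR2 and 33.0% of RNR1.
RNR1 longest A run, chrM:966-1025: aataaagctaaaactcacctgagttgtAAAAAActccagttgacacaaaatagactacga
RNR2 longest A run, chrM:2430-2489: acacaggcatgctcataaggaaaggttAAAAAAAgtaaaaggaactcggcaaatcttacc

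The third set holds 4 L-strand tRNAs that led the total RNA libraries. TRNN, TRNC and TRNY belong to a cluster of L-strand tRNAs between ND2 and COX1, and TRNS1 follows the 3′ end of COX1 on the opposite strand.
TRNS1, chrM:7446-7514, minus strand: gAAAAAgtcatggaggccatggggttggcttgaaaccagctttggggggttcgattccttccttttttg
TRNC, chrM:5761-5826, minus strand: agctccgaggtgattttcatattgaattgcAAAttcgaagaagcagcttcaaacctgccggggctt
TRNN, chrM:5657-5729, minus strand: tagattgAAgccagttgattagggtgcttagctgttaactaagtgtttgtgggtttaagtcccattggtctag
TRNY, chrM:5826-5891, minus strand: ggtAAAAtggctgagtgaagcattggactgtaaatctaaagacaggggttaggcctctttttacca

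The last set holds TRNR, the highest tRNA gene of the poly(A) libraries, and TRNT and TRNP, which lie next to each other on opposite strands and changed with time.
TRNR, chrM:10405-10469, plus strand: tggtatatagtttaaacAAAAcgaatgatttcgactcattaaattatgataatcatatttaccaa
TRNT, chrM:15888-15953, plus strand: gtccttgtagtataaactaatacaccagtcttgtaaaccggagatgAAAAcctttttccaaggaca
TRNP, chrM:15956-16023, minus strand: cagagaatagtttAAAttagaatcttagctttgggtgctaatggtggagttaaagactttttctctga

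RNR1, the RNA of the small mitochondrial ribosomal subunit, was at 2.08 to 202 TPM in the poly(A) libraries except in 1 group. The 4 low purity wells of day 2 held 1025, 1224, 1916 and 729 TPM of RNR1, from 1851 to 4826 reads each. The 4 high purity wells of the same day held 24.4, 6.44, 8.28 and 15.0 TPM, from 23 to 79 reads. The groups did not overlap, and the mean was 90.5 times higher in the low purity wells (1223 ± 504 against 13.5 ± 8.11 TPM, SD, n = 4 each).

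Before and after day 2 the low purity wells were far lower. On day 0 they held 107, 44.5, 10.3 and 13.8 TPM of RNR1, against 63.5, 119, 40.7 and 58.3 TPM in high purity wells. On day 4 they held 202, 79.9, 52.2 and 6.49 TPM, against 11.2, 11.2, 2.08 and 28.8 TPM. The classes overlapped on both days, and the day 4 low purity wells spread over a wider range than those of any other day but day 2. From day 6 on, the level of RNR1 lay between 2.41 and 106 TPM in every well. On day 13 both high purity wells (106 and 96.8 TPM) were above the low purity wells (21.6 to 75.3 TPM, n = 4), whereas on day 16 the low purity wells (25.7 to 50.3 TPM, n = 3) lay just above the high purity wells (4.15 to 25.5 TPM, n = 3).

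RNR2, the RNA of the large subunit, was abundant in every poly(A) library and differed by much smaller factors. On day 0 it took 16.7%, 17.3%, 15.2% and 17.1% of the TPM in high purity wells, and 22.8%, 22.6%, 22.8% and 22.4% in low purity wells. On day 2 the shares were 15.5%, 13.2%, 14.7% and 15.0% in high and 20.5%, 21.0%, 20.4% and 19.2% in low purity wells. On both days every low purity well was above every high purity well. On days 4 and 6 the shares stood at 11.3% to 17.1% in high and 16.0% to 18.5% in low purity wells, and the classes overlapped.

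Late in the time course the order was turned. On day 8 the RNR2 share was 17.0%, 17.2% and 24.7% in high and 17.1% to 20.8% in low purity wells, on day 10 it was 21.2% in the single high purity well and 17.8% to 20.1% in low purity wells, and on day 13 it was 25.01% and 22.04% against 19.2% to 21.7%. On day 16 the high purity wells held 30.8%, 26.0% and 33.2%, and the low purity wells 22.4%, 23.7% and 23.5%. On days 10, 13 and 16 every high purity well was above every low purity well. In the high purity wells the mean share was 16.6% ± 0.962 (SD, n = 4) on day 0 and 30.0% ± 3.67 (n = 3) on day 16; in the low purity wells it was 22.6% ± 0.188 (n = 4) and 23.2% ± 0.702 (n = 3). The marker sums above moved with the day 16 difference, and their part in it was not tested. In these bulk samples a different number of cells of a type and a different amount of RNA per cell cannot be told apart.

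**Figure D1:**
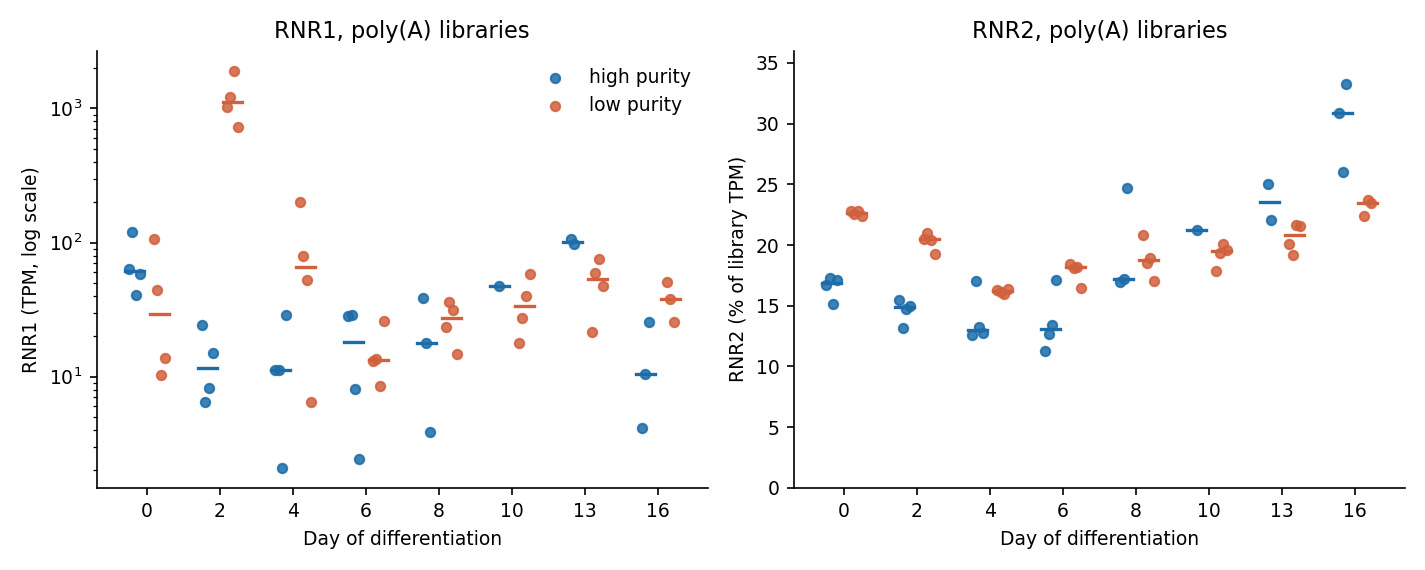
RNR1 in TPM on a log scale (left) and RNR2 in percent of library TPM (right) by day of differentiation in the poly(A) libraries; each point is a well, blue for high and orange for low purity, and bars are medians. The 4 low purity wells of day 2 hold 729 to 1916 TPM of RNR1, while RNR2 spans 11.3% to 33.2% with high purity wells lower on days 0 and 2 and higher on day 16.

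TPM is scaled by gene length, but a poly(A) kit captures RNA by its A residues. A ratio of the rRNAs here is therefore one of captured RNA and need not be that of the cells. The RNR1 to RNR2 ratio had a median of 0.000163 over the 56 poly(A) libraries, so RNR2 was far above RNR1 in the captured RNA. In the low purity wells of day 2 the ratio was 0.00379 to 0.00938, and in the 52 other wells it was 1.35e-05 to 0.00124. Both rRNAs together took a median of 18.5% of library TPM. RNR2 alone thus accounts for nearly the whole rRNA share, and the rise of RNR1 on day 2 added at most 0.192% of TPM.

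RNR2 has near-identical nuclear copies, the MTRNR2L genes, so reads can be divided between them and RNR2. Of 23 listed nuclear copies 10 were in the tables, and 2 had a mean of at least 10 TPM with the poly(A) kit: MTRNR2L2 (4619 TPM) and MTRNR2L8 (817 TPM). With the total RNA kit their means were 0.0508 and 0.0350 TPM. On day 2 MTRNR2L2 was at 8033 to 9950 TPM in low and 2286 to 3507 TPM in high purity wells, in the same direction as RNR2. The value of RNR2 is therefore uncertain. The 10 copies summed to 2174 to 11051 TPM per well, which need not be the whole of that uncertainty.

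Several RNAs that normally lack a poly(A) tail were compared with RNR1 over the same wells. On day 2 the 34 listed RNAs of this kind summed to 67622 to 75287 TPM in low purity wells. In high purity wells they summed to 78944 to 83436 TPM. Most of either sum was RN7SK. RN7SK, a small nuclear RNA that restrains transcription elongation, was at 61642 to 68083 TPM in low and 72174 to 77038 TPM in high purity wells of day 2. RMRP, an RNA of the mitochondrial RNA processing ribonuclease, was at 2534 to 3365 TPM and 2547 to 2856 TPM. Of the 21 RNAs of the list with a mean of at least 10 TPM in a table, 7 had every high purity well of day 2 above every low purity well (RN7SK, TERC, RNU1-1, SCARNA2, SCARNA5, SCARNA6 and SCARNA10), 3 had the opposite order and 11 overlapped; of all 25664 genes tested 15.7% had the first order and 18.3% the second. The 3 were RNY1, a Y RNA, at 276 to 546 TPM in low and 48.8 to 85.6 TPM in high purity wells, the small nucleolar RNA SNORD3A at 279 to 407 and 226 to 248 TPM, and the histone mRNA HIST2H2AC at 279 to 336 and 242 to 276 TPM. Cytosolic rRNA genes summed to 787 to 838 TPM in low and 965 to 1164 TPM in high purity wells. The part of these RNAs in the RNR1 level was not tested.

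Among 19728 genes with a mean of at least 1 TPM, the 5 outside the mitochondrial genome whose log2 level followed RNR1 most closely over the 56 libraries were NDUFS5 (Pearson r = 0.64), C11orf87 (0.64), LOC105369482 (0.60), LOC105369933 (0.60) and LOC105373426 (0.60). NDUFS5, a nuclear gene for a subunit of respiratory complex I, was at 153 to 222 TPM in the low purity wells of day 2 and at 27.6 to 86.8 TPM in all 52 others. C11orf87 was at 32.2 to 43.1 TPM in those wells and at 0 to 5.60 TPM in the others. The correlations are over wells that share libraries, 4 of which stand apart in RNR1, and are given as a description.

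The day of these RNR1-rich wells follows the column names of the TPM table. The deposited count table holds the same reads under other names: 0 of its 56 columns matched the TPM column of the same name, and 50 matched another. The reads of the 4 RNR1-rich wells stand in the count table under low purity day 13 (wells 3 and 4) and day 16 (wells 1 and 2). Days are given by the TPM names throughout. The markers of the RNR1-rich wells were those of day 2: 4 primitive streak and mesoderm markers summed to 1478 to 1607 TPM and 6 cardiomyocyte markers to 4.22 to 6.28 TPM. In the wells that the TPM table names low purity day 13 and day 16 the first sum was 2.91 to 5.27 TPM and the second 2458 to 5353 TPM.

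The total RNA libraries gave a different picture of both rRNAs. Cytosolic rRNA genes summed to 117 to 260 TPM in these libraries and to 468 to 1364 TPM with the poly(A) kit. Whether library preparation removed rRNA was not tested. The rRNA levels below are those of the libraries and need not be those of the cells. In 21 of 24 libraries RNR1 was at 8.53 to 27.4 TPM and RNR2 at 5.86 to 82.1 TPM, and the rRNAs together took 0.00151% to 0.0110% of library TPM. In the other 3 libraries both were above 1000 TPM. The low purity IMR90-4 library of day 0 held 1711 TPM of RNR1 and 1668 TPM of RNR2. The low purity IMR90-4 library of day 7 held 3295 and 3631 TPM, and the high purity WTC11 library of day 4 held 1318 and 1033 TPM. The low purity WTC11 library of day 2 shared line, passage and day with the RNR1-rich poly(A) wells (729 to 1916 TPM). It showed no such level, since all low purity libraries of stage 2 lay at 10.1 to 12.4 TPM of RNR1. The kits differ, and the reason for this contrast was not tested.

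The 3 libraries with both rRNAs above 1000 TPM shared no single line, stage or purity class. Their rRNA shares were 0.338%, 0.693% and 0.235% of TPM, and their RNR1 counts were 35541, 45250 and 26907 reads, against 173 to 492 reads in the 21 others. The H9 low purity library of day 7 stood apart in RNR2 alone, with 82.1 TPM against 27.4 TPM of RNR1. Of the same 21 RNAs without a poly(A) tail, 0 had all 3 libraries above the other 21: RMRP was at 133507 to 176826 TPM in the 3 and 92149 to 200629 TPM in the 21, and RN7SK at 72484 to 291328 and 75954 to 321512 TPM. RNA45SN4, a precursor gene of cytosolic rRNA, was at 122 to 220 and 73.5 to 194 TPM. The nuclear copy MTRNR2L2 was at 0.226 to 0.402 TPM in the 3 and at 0 to 0.106 TPM in the 21.

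The RNR1 to RNR2 ratio was near unity with the total RNA kit. Its median was 1.24 over the 24 libraries, with a range of 0.334 (H9, low purity, day 7) to 1.72. In the 3 rRNA-rich libraries it was 0.908 to 1.28, so both rRNAs were raised in proportion. The kits and tables differ, and the ratio of 0.000163 with the poly(A) kit and of 1.24 with the total RNA kit are set side by side without a test.

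**Figure D2:**
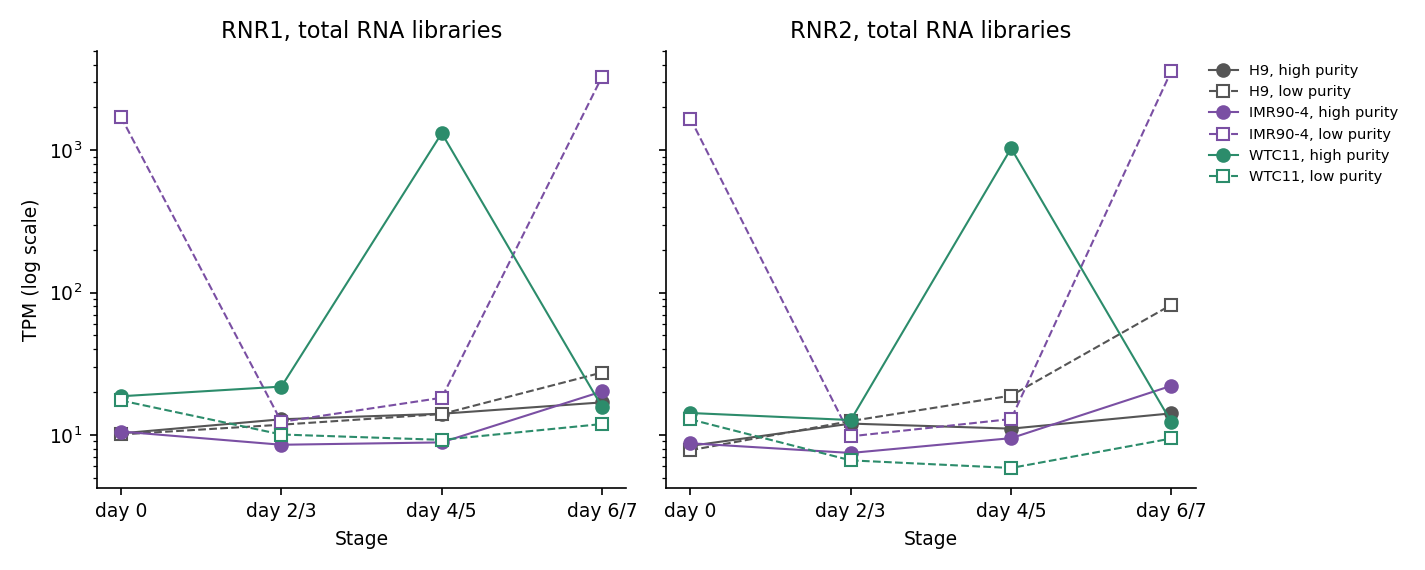
RNR1 (left) and RNR2 (right) in TPM on a log scale at the 4 stages in the total RNA libraries; each point is a library, filled circles and full lines for high and open squares and broken lines for low purity differentiations of H9 (grey), IMR90-4 (purple) and WTC11 (green). The same 3 libraries lie above 1000 TPM in both panels (1033 to 3631 TPM), and the 21 others lie between 5.86 and 82.1 TPM.

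Differences of the rRNAs between classes and stages are given as estimates from edgeR, as a description. For RNR1 the high minus low difference was -1.53 ± 2.09 at stage 1, 0.20 ± 1.66 at stage 2, 1.04 ± 2.13 at stage 3 and -1.84 ± 2.09 at stage 4 on the log2 scale (SE, 3 lines). For RNR2 the differences were -1.46 ± 2.10, 0.12 ± 1.64, 0.90 ± 2.13 and -2.95 ± 2.20. For the change from stage 1 to stage 2 RNR1 gave -0.59 ± 1.13 and RNR2 -0.62 ± 1.20, and without the 3 libraries both estimates changed sign, to 0.08 and 0.04.

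The tRNA genes took a small share of the poly(A) libraries and a larger one of the total RNA libraries. The share of the 22 genes was 0.529% to 1.45% of TPM (median 0.826%) over the 56 poly(A) libraries and 2.49% to 4.47% (median 3.31%) over the 24 total RNA libraries. A tRNA gene is short, so that a few reads give a high TPM: by reads the medians were 0.0190% and 0.164%. Mean levels were above 1 TPM for 20 of 22 tRNA genes with the poly(A) kit and for 21 with the total RNA kit. TRNF and TRNV, which flank RNR1, were at 0.0738 and 0 TPM with the poly(A) kit and at 1.07 and 0.222 TPM with the total RNA kit.

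Which tRNAs led differed between the experiments, whose kits differ and whose lines and days differ in part. With the total RNA kit, L-strand tRNA genes made up 92.1% to 97.1% of tRNA TPM. With the poly(A) kit they made up 22.9% to 44.2%, without overlap between the sets of libraries. Both sets hold low purity WTC11 libraries of the same passage on days 0, 2, 4 and 6. At equal line, passage and day the shares therefore did not overlap either. The part of the kit itself was not tested. TRNS1 (serine tRNA) had a mean of 20227 TPM with total RNA and 1271 TPM with poly(A). TRNC (cysteine) had 7520 and 6.25 TPM, and TRNN (asparagine) had 3005 and 4.36 TPM. TRNY (tyrosine) had 728 and 72.8 TPM. The order was the reverse for TRNR (arginine), with 164 TPM in total RNA and 2188 TPM in poly(A), and for TRND (aspartate), with 48.3 and 626 TPM.

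Altogether 15 of 22 tRNA genes had a higher mean in the poly(A) table and 7 in the total RNA table. The strand did not order the genes without exception, since the L-strand genes TRNE (glutamate, 245 and 1036 TPM), TRNP (proline, 211 and 437 TPM) and TRNA (alanine, 4.99 and 86.4 TPM) were higher with poly(A). The 4 highest means were TRNR, TRNS1, TRNE and TRNT with poly(A), and TRNS1, TRNC, TRNN and TRNT with total RNA. TRNT (threonine) differed least among these, at 757 and 859 TPM. The strand setting used for counting is not given in the sources used here, so reads from a tRNA and from the transcript of the opposite strand at that place cannot be told apart, and TRNC and TRNY share 1 base pair.

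**Figure D3:**
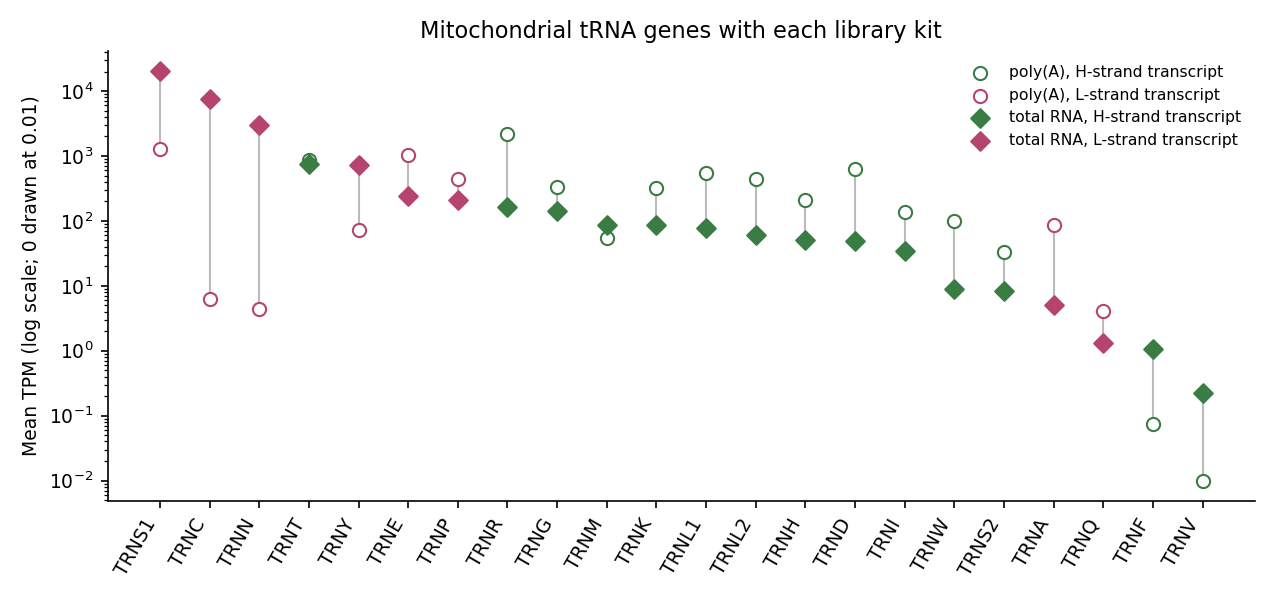
Mean TPM on a log scale of each of the 22 mitochondrial tRNA genes in the 24 total RNA libraries (filled diamonds) and the 56 poly(A) libraries (open circles), green for genes of the H-strand transcript and pink for genes of the L-strand transcript, ordered by the total RNA mean. TRNC (7520 against 6.25 TPM) and TRNN (3005 against 4.36 TPM) lie far above their poly(A) values, and TRNR and TRND lie far below theirs.

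The tRNA genes of the poly(A) libraries were then compared between the purity classes day by day. The kit selects poly(A) RNA, whereas a mature tRNA ends in CCA. Reads at these genes therefore need not come from mature tRNA. Of the 22, 20 passed the filter on low values (TRNF and TRNV did not). A gene was counted as changed at an adjusted p under 0.05 and a change of at least 2-fold in limma on log2 of scaled TPM + 1. On day 0, 8 of 20 tRNA genes were lower in the high purity wells and 0 higher, where 1.07% of 25664 genes were called in either direction; the median change was -1.12 for the tRNA genes and 0.01 for all genes. On day 2, 3 were lower (5.33% of all genes called), on day 4, 1 was lower (7.84%), and on day 6, 5 were lower (8.8%), with 0 higher on each of these days.

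Later comparisons gave fewer or opposite calls. On day 8 no tRNA gene of 20 was called by limma (12.2% of all genes called), although 5 passed the adjusted p without the fold threshold (44.1% of all genes); at an unadjusted p under 0.05 there were 7, and edgeR and DESeq2 on recovered reads also called 0. On day 13, 3 were lower in high purity wells (10.8% of all genes), and on day 16, 2 were higher (13.4%). The shares on days 4, 8, 13 and 16 (at most 3 of 20) were near the background.

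The genes called on day 0 are those of tRNAs for aspartate, glutamate, lysine, leucine (TRNL1 and TRNL2), methionine, serine and tryptophan. TRNS1 was at 372, 346, 362 and 536 TPM in high and 1733, 1444, 1348 and 1111 TPM in low purity wells, a log2 change of -1.87 ± 0.37 (SE, n = 4 each; limma, adjusted p = 0.000297). TRNL1, which follows RNR2 directly in the H-strand precursor, was at 220, 268, 264 and 341 TPM against 752, 895, 759 and 779 TPM, a change of -1.62 ± 0.24 (limma, adjusted p = 5.75e-06). In both genes every high purity well lay below every low purity well. TRNM had the largest change among the 8, -2.70 ± 0.54 (limma, adjusted p = 0.00034), at 15.9, 42.6, 3.78 and 2.85 TPM against 68.1, 82.8, 72.0 and 46.2 TPM. These levels rest on 1 to 17 reads per high and 10 to 17 reads per low purity well, so counting error limits the size of this change.

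The remaining calls of day 0 were TRNK (-1.75), TRNL2 (-1.46), TRNW (-1.29), TRND (-1.28) and TRNE (-1.10). Over all 22 tRNA genes, 12 had every high purity well below every low purity well on day 0 and 0 had the opposite order, where 5.16% and 16.7% of the 25664 genes tested did. RNR2 moved in the same direction on that day. Under the names of the count table, edgeR called 2 of the 20 genes on day 0 in place of 8, and TRND, TRNE, TRNL1, TRNM, TRNS1 and TRNW had the opposite sign. The 4 columns that table names high purity day 0 hold the reads of the wells that the TPM table names high purity day 13 and day 16, with cardiomyocyte marker sums of 8198 to 11973 TPM, whereas the wells named day 0 in the TPM table had pluripotency sums of 2537 to 3315 TPM and cardiomyocyte sums of 8.82 to 13.8 TPM.

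TRNK, TRNL2 and TRNS1 were called on days 0, 2 and 6. TRNK was at 332, 202, 189 and 268 TPM in high and 724, 885, 714 and 714 TPM in low purity wells of day 2, a change of -1.57 ± 0.28 (limma, adjusted p = 9.55e-06), with no overlap. TRNL2 was the single call of day 4, at -1.22 ± 0.30 (limma, adjusted p = 0.000937). On day 6 TRNE (-1.05) and TRNL1 (-1.14) were called beside TRNK (-1.20), TRNL2 (-1.60) and TRNS1 (-1.17), and with the wells numbered 1 left out all 5 fell short of the threshold. On day 13, with 2 high purity wells, TRNH was at 70.4 and 48.6 TPM against 133 to 213 TPM, and TRNK and TRNW were no longer called without the wells numbered 3.

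On day 16 the direction of the 2 called genes was the other way. TRNA was at 258, 245 and 190 TPM in high and 40.1, 130 and 89.9 TPM in low purity wells, a change of 1.77 ± 0.39 (SE, n = 3 each; limma, adjusted p = 0.000217). TRNS1 was at 2559, 2034 and 2226 TPM against 1297, 896 and 1029 TPM, a change of 1.31 ± 0.42 (limma, adjusted p = 0.00994), which was lost without the wells numbered 3 (limma, adjusted p = 0.0946). The high purity wells lay above the low purity wells in both, as they did in 7 of 22 tRNA genes on that day, against 2 in the opposite order; over all genes tested 15.6% and 32.1% did. Under the names of the count table both changes had the opposite sign in edgeR, but it is the TPM names that go with cardiomyocyte and stromal marker sums of day 16 (given above) and with pluripotency sums of 14.3 to 24.5 TPM.

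**Figure D4:**
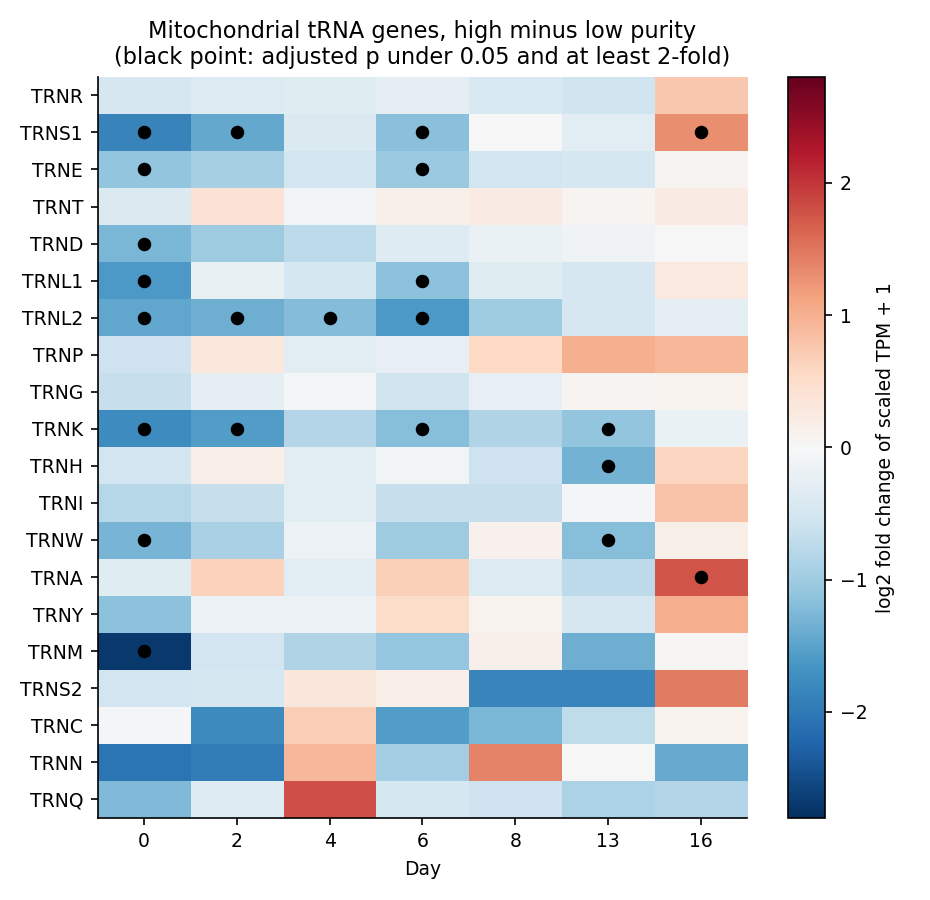
Log2 fold change of scaled TPM + 1 between high and low purity wells (colour; blue is lower and red higher in high purity) for the 20 tested tRNA genes, ordered by mean level, on 7 days of the poly(A) experiment; black points mark genes with an adjusted p under 0.05 and at least a 2-fold change. The 8 marked genes of day 0 are all lower in high purity wells, and the 2 marked genes of day 16 are higher.

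Change with time was compared within each differentiation. From day 0 to day 2, 3 of 20 tRNA genes rose in the high purity wells (16.7% of all genes called), a share near the background. In the low purity wells 0 changed by limma (17.9%), where 2 genes had an unadjusted p under 0.05. The 3 that rose in high purity wells were TRNL1 (1.27 ± 0.24), TRNM (2.75 ± 0.54) and TRNS1 (1.28 ± 0.37). TRNL1 went from 220 to 341 TPM on day 0 to 552 to 832 TPM on day 2, against 752 to 895 and 656 to 964 TPM in low purity wells. The difference between the changes passed the test for TRNL1 (1.41 ± 0.34; limma, adjusted p = 0.00211) and TRNM (2.17 ± 0.76; limma, adjusted p = 0.0381), among 3.22% of all genes called. The TRNM difference was lost when the wells numbered 1, 3 or 4 were left out, and TRNM had only 1 to 36 reads per well on these days.

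From day 2 to day 8, 0 of 20 changed in the high purity wells by limma (20.6% of all genes called; 6 with an unadjusted p under 0.05) and 4 fell in the low purity wells (22.6%), both shares at or below the background. The 4 were TRNK (-1.20), TRNM (-1.89), TRNS1 (-1.52) and TRNY (-1.27). TRNS1 was at 2413 to 3248 TPM in low purity wells on day 2 and at 638 to 1786 TPM on day 8. The TRNS1 changes differed between classes by 1.45 ± 0.54 (limma, adjusted p = 0.0337; 11.3% of all genes called), and this was lost when the wells numbered 2, 3 or 4 were left out.

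The largest set of time-dependent calls came late in the high purity wells. From day 8 to day 16, 7 of 20 tRNA genes rose and 0 fell there, where 11.4% of all genes were called; the median change was 1.05 for the tRNA genes. TRNR went from 1561, 1497 and 1554 TPM to 2963, 3738 and 3110 TPM, a change of 1.30 ± 0.16 (SE, n = 3 each; limma, adjusted p = 2.45e-09). TRNP went from 322, 340 and 391 TPM to 1258, 1023 and 988 TPM, a change of 1.84 ± 0.25 (limma, adjusted p = 4.2e-08). In both genes all wells of day 16 were above all wells of day 8. The others were TRNA (2.14), TRNH (1.33), TRNI (1.47), TRNS1 (1.52) and TRNS2 (2.95), of which TRNS1 and TRNS2 were lost without the wells numbered 1. TRNS2 was at 0 to 31.5 TPM on day 8 and at 52.2 to 78.0 TPM on day 16, so a well at 0 enlarges its change.

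In the low purity wells TRNP alone rose over the same days (6.39% of all genes called), from 358, 240, 239 and 297 TPM to 604, 685 and 712 TPM, a change of 1.47 ± 0.23 (limma, adjusted p = 1.57e-06). The changes differed between the classes for TRNA (2.14 ± 0.54), TRNH (1.17 ± 0.33), TRNI (1.45 ± 0.46) and TRNR (1.17 ± 0.21), with limma adjusted p-values of 0.00191, 0.0053, 0.0156 and 3.08e-05, among 9.17% of all genes called. The difference was lost for TRNA without the wells numbered 1, for TRNH without those numbered 2 and for TRNI without either. TRNR in low purity wells was at 2216 to 2674 TPM on day 8 and 1985 to 2624 TPM on day 16. Cardiomyocyte and stromal marker sums differed between the classes on day 16 as given above, and their part in these differences was not tested.

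**Figure D5:**
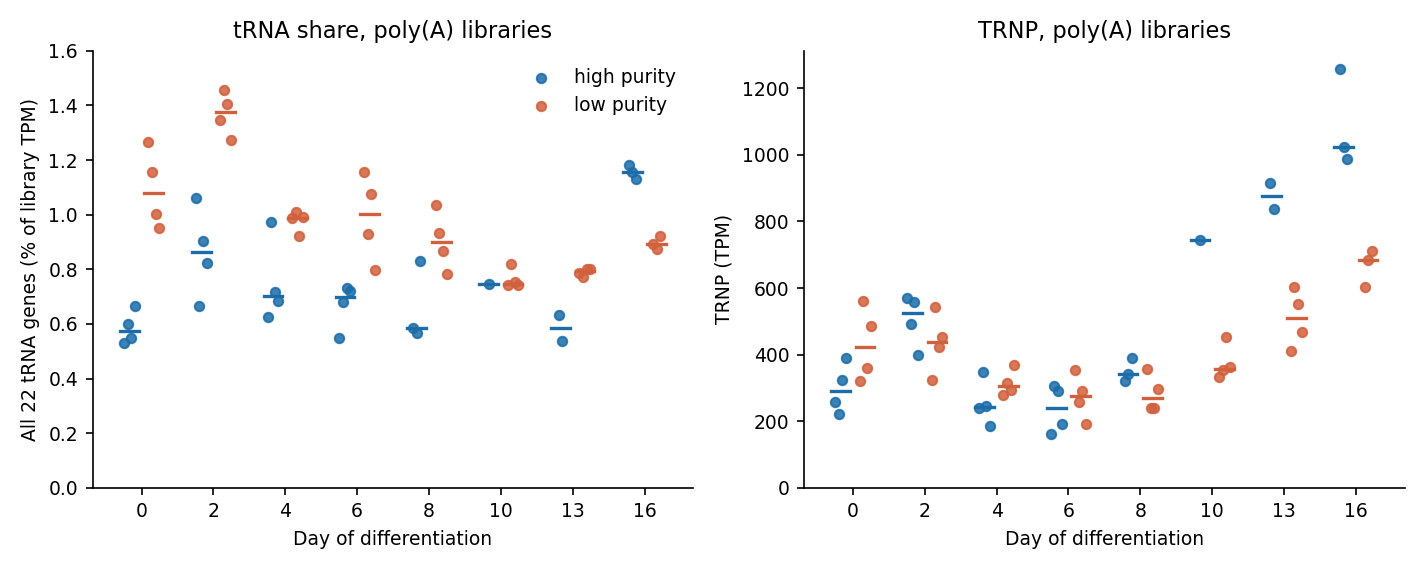
Share of library TPM in the 22 tRNA genes (left, percent) and TRNP in TPM (right) by day in the poly(A) libraries; each point is a well, blue for high and orange for low purity, and bars are medians. The tRNA share is 0.529% to 0.664% in high and 0.949% to 1.27% in low purity wells on day 0, and 1.13% to 1.18% and 0.875% to 0.923% on day 16, when TRNP stands highest in high purity wells.

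In the total RNA experiment the purity classes were compared at each stage over the 3 lines. Of 22 tRNA genes 19 passed the filter on low counts, and edgeR called 0 of them and 0 of all 23848 genes at each of the 4 stages. At an unadjusted p under 0.05 there were 354, 1896, 1798 and 2876 genes at stages 1 to 4, of which 0, 0, 0 and 1 were tRNA genes. The tRNA gene was TRNE, with -0.45 ± 0.17 at stage 4 (edgeR, adjusted p = 0.332). DESeq2 called 0, 76, 51 and 205 genes, with 0 tRNA genes among them.

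Stage changes were tested over both classes together. From stage 1 to stage 2, TRNP fell in 6 of 6 differentiations, from 345 to 533 TPM (median 388) to 114 to 243 TPM (median 144), a log2 change of -1.23 ± 0.16 (SE; edgeR, adjusted p = 6.14e-06); it was the single tRNA gene of 19 called, where 25.6% of all genes were. Its neighbour TRNT, with a change of -0.91 ± 0.14 (edgeR, adjusted p = 4.25e-05), was just under 2-fold, going from 808 to 1770 TPM to 510 to 763 TPM and lower in 6 of 6. Neither range overlapped between the stages. The poly(A) libraries of WTC11 did not share this fall in both classes. From day 0 to day 2 TRNP changed there by 0.74 in high and -0.13 in low purity wells (limma). TRNT changed by 0.40 and -0.40. The kits differ, and the reason for this contrast was not tested. TRNC (0.47), TRNM (0.50), TRNN (0.27) and TRNE (-0.49) also had adjusted p-values under 0.05 in edgeR, with smaller changes.

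Later stage changes were fewer. From stage 2 to stage 3, edgeR called 0 tRNA genes (6.86% of all genes; 2 tRNA genes at an unadjusted p under 0.05), and TRNY had a change of -0.63 ± 0.17 (adjusted p = 0.0181) without reaching 2-fold. From stage 3 to stage 4, TRNS2 rose in 6 of 6 differentiations, from 0.687 to 10.8 TPM to 2.32 to 30.6 TPM, a change of 1.78 ± 0.52 (edgeR, adjusted p = 0.0489), among 3.72% of all genes called. The ranges overlapped, and the call was lost without any 1 line and without the 3 rRNA-rich libraries.

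Nuclear genes that transcribe, process and translate mitochondrial RNA were followed as a list of 67, of which 66 were in the tables and 65 were tested with the poly(A) kit. Between the classes 0 of 65 were called on days 0, 2 and 4 by limma (without the fold threshold 7 were higher and 3 lower on day 0, 18 and 15 on day 2, and 13 and 12 on day 4, where 14.6%, 37.4% and 36.8% of all genes passed), 1 rose on day 6, 2 on days 8 and 13 and 3 on day 16. Beside the backgrounds given above these are low shares. PPARGC1A, a coactivator that drives mitochondrial biogenesis, was at 38.3 to 40.4 TPM in high and 11.5 to 20.8 TPM in low purity wells of day 16, a change of 1.42 ± 0.22 (limma, adjusted p = 7.49e-07), and PPARGC1B, a related coactivator, had a change of 1.22 ± 0.13 on that day and of 1.48 ± 0.12 on day 6. On days 8 and 13 the called genes were PPARGC1A (1.05 and 1.29) and ESRRA, a nuclear receptor of mitochondrial genes (1.01 and 1.05). The 2 calls of day 8 came to 0 without the wells numbered 4 and without scaling, and to 1 without the wells numbered 2, and those of day 13 to 1 without scaling and with the replicate block. The classes did not overlap in PPARGC1A on day 16.

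Over time, 8 of 65 fell from day 0 to day 2 in each class and 0 rose, a smaller share than the 16.7% and 17.9% of all genes called. The fallers included PPARGC1B at -2.08 ± 0.12 in high and -2.23 ± 0.12 in low purity wells, PPRC1 at -1.85 in high and PUS1 at -1.34 in low purity wells. From day 2 to day 8 PPARGC1A rose in both, by 4.24 ± 0.21 and 3.92 ± 0.19 (limma). The RNA methyltransferase NSUN2 fell by 1.39 on the log2 scale in low purity wells. SLIRP, which with LRPPRC stabilises mitochondrial mRNAs, fell by 1.80 on the log2 scale in low purity wells over those days, and its change differed between the classes by 1.18 ± 0.16 (limma, adjusted p = 6.68e-08), as did that of SSBP1, which binds single-stranded mitochondrial DNA, by 1.01 ± 0.18, and without scaling there was 1 call in place of 2. From day 8 to day 16 PPARGC1B rose (1.26) and HSD17B10, a subunit of mitochondrial RNase P, fell (-1.14) in high purity wells. SLIRP was at 329 to 372 TPM in the low and 169 to 193 TPM in the high purity wells of day 2, without overlap. In the total RNA libraries 7 of 66 fell and 0 rose from stage 1 to stage 2, where 25.6% of all genes were called, and 4 fell without IMR90-4 or without WTC11. The fallers included PUS1, a pseudouridine synthase that modifies tRNAs, at -1.49 ± 0.17 (edgeR, adjusted p = 1.86e-06) and PPARGC1A at -2.16. ESRRA fell from stage 2 to stage 3 (-1.03), which was lost without H9, without WTC11 and without the 3 rRNA-rich libraries, and PPARGC1A rose by 3.48 ± 0.45 from stage 3 to stage 4 (edgeR, adjusted p = 0.000267), which was lost without IMR90-4.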

How the data were processed

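RNA was extracted from Trizol lysates, and the authors deposited, per the submitters' processing notes, output of STAR 2.5.3a and featureCounts 2.0.3 on hg38; the strand setting, annotation and TPM calculation are not given in the sources used here. The deposited files hold counts and TPM values per gene. For the poly(A) libraries the deposited TPM was used, because no column of the deposited count table matched the TPM column of its name; whole reads were recovered from TPM for 37194 genes (100% of nonzero values whole within 0.05 reads; at most 0.247% of a library's TPM lay in other genes). For the total RNA libraries the deposited counts were tested, after 36 broken lines were left out.

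Poly(A) libraries were fitted with limma 3.58.1 (R 4.3.3) on log2(TPM scaled by TMM factors + 1), for the 25664 genes that reached 1 TPM in 3 or more libraries, with a mean for each of 16 groups of purity and day. This scale understates the change of genes near or below 1 TPM, and a well at 0 can overstate that of a short gene. Total RNA counts were fitted with the edgeR 4.0.16 quasi-likelihood test (TMM factors, 23848 genes after its filter on low counts), with all 3 lines as samples. P-values were adjusted by Benjamini-Hochberg over all genes tested, and a call needed an adjusted p under 0.05 and a change of at least 2-fold. DESeq2 1.42.0, other scalings, filters and pseudocounts, recovered reads, a replicate block and left-out replicates were tried as alternatives. The procedures were tested on simulated data.

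The rule for names was both rRNAs, the 4 tRNA genes with the highest mean in each table, the 5 genes most correlated with RNR1, listed RNAs without a tail and nuclear copies with a mean of at least 10 TPM (given here as counts, with examples), and the 2 called machinery genes with the largest rise and fall in each comparison. Other tRNA genes, all called in a comparison or far apart between kits, were named after their values were seen. The genes, lists and tests were chosen with earlier results of these data known. Tests planned for the 13 mRNA genes were not run. Wells and lines are the samples, so p-values of the poly(A) comparisons measure only the spread between wells of a differentiation.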

Additional observations from a re-analysis of the deposited data

Results flagged for a closer look

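Among 88 combinations of a value and a group of 4 wells, 8 had a well far from the other 3 (Dixon's test), where chance gives about 1 in 20. RNR2 was at 170109 TPM in high purity well 2 of day 4 and at 125859 to 132666 TPM in the others. TRNS1 was at 536 TPM in high purity well 4 of day 0 (others 346 to 372), TRNR at 2657 TPM in low purity well 3 of day 2 (others 2740 to 2747), and TRNE at 1084 TPM in low purity well 4 of day 8 (others 1192 to 1205). The tRNA share was 0.821% in low purity well 2 of day 10 (others 0.741% to 0.752%). The L-strand share of tRNA TPM was 23.7% in high purity well 2 of day 0 (others 26.2% to 26.5%), 39.8% in low purity well 2 of day 2 (others 37.7% to 38.0%) and 33.4% in low purity well 1 of day 6 (others 34.9% to 35.0%).

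The change with time differed between the purity classes, by a test of the difference in limma, for 7 tRNA results, all with a more positive change in high purity wells. From day 0 to day 2 the differences were 1.41 for TRNL1 and 2.17 for TRNM (1 to 36 reads per well) on the log2 scale. From day 2 to day 8 the difference was 1.45 for TRNS1, a share of tRNA genes below that of all genes called. From day 8 to day 16 the differences were 2.14 for TRNA, 1.17 for TRNH, 1.45 for TRNI and 1.17 for TRNR. The share of all genes called in each comparison is given above. The differences for TRNM, TRNS1, TRNA, TRNH and TRNI were lost with a set of same-numbered wells left out.

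Of the 6 columns of the poly(A) count table that matched no TPM column, the 4 named low purity day 8 held 1393, 1705, 1876 and 13289 reads of RNR1, and the other 2 held 71 and 378 reads. These columns entered no comparison of the report other than the alternative under the count table's own names.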

How the results depend on the processing

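Of 622 values of single genes under alternatives, 557 kept their direction and side of the threshold, 43 fell short of it and 22 changed sign; of 203 counts, shares and ratios (left-out replicates aside), 163 stayed within their range and 40 moved. In edgeR on the count table under its own names the calls between classes were 2, 1, 5, 1 and 0 on days 0, 2, 4, 6 and 13, and these log2 changes changed sign: on day 0 TRND 0.32, TRNE 0.18, TRNL1 0.41, TRNM 0.73, TRNS1 1.07 and TRNW 0.44; on day 6 TRNE 0.26, TRNK 0.31, TRNL1 0.19, TRNL2 0.025 and TRNS1 0.83; on day 13 TRNH 0.16; on day 16 TRNA -0.026 and TRNS1 -1.11. By construction this alternative compares other libraries: 50 of the 56 columns hold the reads of a TPM column of another name, and stage markers follow the TPM names, with streak and mesoderm sums of 1478 to 1945 TPM on day 2 and at most 143 TPM on any other day.

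Without the fold threshold the tRNA calls between classes were 8 on day 2 and 5 on each of days 4, 8, 13 and 16. On day 2 this was near the share of all genes given above, and on days 4 and 8 below it. With time the calls were 8, 4 and 11 in high purity (day 0 to 2, 2 to 8, 8 to 16) and 2, 11 and 2 in low purity. They were 4 and 2 for the first 2 differences in change, and 6 and 1 for stages 1 to 2 and 2 to 3. For days 13 and 16 and the changes with time the share of all genes is not given here. Those counts are therefore not read as a result about the tRNA genes. Without scaling, 2 were called on day 8 and 1 in low purity from day 0 to 2. Both edgeR and DESeq2 on recovered reads called 1 in high purity from day 2 to 8, 2 in low purity from day 8 to 16 and 1 for the difference from day 0 to 2. For the difference from day 2 to 8, DESeq2, RLE scaling, rescaled TPM and the replicate block each called 2. From stage 3 to 4 the call of TRNS2 was lost (0 calls) with RLE, with no filter and without the 3 rRNA-rich libraries, the last chosen after seeing the data. Same-numbered wells showed no pairing (44 correlations, -0.0347 to 0.0654, 0 over 0.1), and the replicate block moved no other count of tRNA calls.

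By reads in place of TPM the medians were 9.08% for rRNA and 0.0190% for tRNA with poly(A), and 0.164% for tRNA and 0.761 for the RNR1 to RNR2 ratio with total RNA; without 5 abundant RNAs lacking poly(A) tails the total RNA tRNA share was 4.93%. For stages 1 to 2, leaving out a line gave -1.20 to 0.094 for RNR1 and -1.29 to 0.12 for RNR2, and leaving out the 3 libraries 0.076 and 0.040. For stages 3 to 4, leaving out a line gave -2.06 to 1.74 for RNR1 and -1.50 to 2.15 for RNR2 (-0.74 without H9), and leaving out the 3 libraries gave 0.43 for RNR1.

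With each replicate left out in turn, the calls between classes ranged from 8 to 8 on day 0, 3 to 6 on day 2, 1 to 3 on day 4, 1 to 7 on day 6, 0 to 3 on day 8, 2 to 4 on day 13 and 2 to 4 on day 16. With time they ranged from 3 to 5, 0 to 4 and 5 to 10 in high purity, 0 to 1, 3 to 5 and 1 to 1 in low purity, and 1 to 2, 0 to 3 and 2 to 7 for the differences in change. In the total RNA libraries they ranged from 0 to 0 between classes, 1 to 1 from stage 1 to 2 and 0 to 0 after that. The medians ranged from 18.3% to 18.7% (rRNA), 0.822% to 0.883% (tRNA) and 0.000158 to 0.000181 (ratio) with poly(A), and from 0.00250% to 0.00292%, 3.13% to 3.48% and 1.11 to 1.27 with total RNA. Where RNR1 had as few as 8 reads in a poly(A) well, counting error limits its level.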
